A study of Canis lupus familiaris with 11 samples.

Results

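The RNA of 9 genes that sense foreign or misplaced nucleic acid, or that carry the signal of such sensors, was followed in MDCKII, an epithelial line from dog kidney that grows as a tight polarised sheet. The genes were taken by name: the RNA receptors IFIH1, DDX58, DHX58 and TLR3, the adaptors MAVS and TMEM173, the DNA-binding proteins IFI16 and MNDA, and the transcription factor IRF3. All 9 were found among the 26178 genes of the deposited count table, and 8 of the 9 passed the filter on low counts. The set was named for cytosolic sensing, yet TLR3 works in endosomes, IFI16 and MNDA are largely nuclear proteins in human cells, and IRF3 is a factor that enters the nucleus.

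The 11 libraries fall into 4 groups: LMNA knockout (KO) cells that were compressed (3 libraries), KO cells that were not (2), wild-type (WT) cells that were compressed (3) and WT cells that were not (3). LMNA encodes lamins A and C, filament proteins under the inner nuclear membrane. All cells were cultured for 3 to 4 d to form a closed monolayer; compressed cells were then squeezed sideways as a sheet, and RNA was taken 2 h later. These conditions are those of the sample titles; the series' design text speaks only of WT cells, on a named day and after reseeding, and was not followed. The labels give no handling or recovery step for the control cells, so that compression cannot be told apart from handling or from the added time. The KO cells are described as derived from the same line. The sources used here do not say whether they are 1 clone or whether replicates are separate cultures, so p-values measure the spread between these libraries, which may be technical. In bulk RNA, fewer cells that express a gene and less RNA per cell cannot be told apart.

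Library totals ran from 10420214 to 17999623 counts. LMNA was at 24.5 to 53.0 CPM (a gene's counts scaled by the library's total) in the 5 KO libraries and at 678 to 1250 CPM in the 6 WT libraries, with no overlap. The 10 epithelial markers summed to 5962 to 7206 CPM in compressed KO cells, 7173 to 7656 CPM in control KO cells, 5733 to 6178 CPM in compressed WT cells and 4650 to 8388 CPM in control WT cells. The 10 immune markers summed to 1.92 to 8.92 CPM over all libraries. PTPRC, CD3E, AIF1 and SPI1 had no count in any of them, while CD14 had 12 to 138 counts and CD68 had 0 to 23 counts per library. The 6 fibroblast markers summed to 2.36 to 6.17 CPM in compressed KO cells, 3.24 to 4.89 CPM in control KO cells, 3.74 to 4.91 CPM in compressed WT cells and 4.16 to 17.5 CPM in control WT cells; DCN and LUM were at 0, while PDGFRA had 28 to 218 counts in every library. The 5 endothelial markers summed to at most 4.33 CPM.

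Cells detect viral or misplaced RNA and DNA with receptors that need no earlier exposure. MDA5 (gene IFIH1) and RIG-I (gene DDX58) are helicases that bind double-stranded RNA in the cytosol and signal through MAVS, a protein of the outer mitochondrial membrane, while TLR3 binds double-stranded RNA in endosomes and signals through TRIF (gene TICAM1). DNA in the cytosol is bound by cGAS, whose product activates STING (gene TMEM173). These routes meet at the kinases TBK1 and IKBKE, which phosphorylate IRF3 and so start transcription of type I interferons and antiviral genes. Several of the receptors are themselves induced by interferon, so that their RNA is often read together with that of the antiviral genes.

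Levels were compared between genes as CPM per kilobase of the authors' gene length. IRF3 was the highest of the 9 genes in each group, at 34.4 ± 8.10 CPM per kilobase in compressed KO cells, 44.2 ± 2.61 in control KO cells, 27.8 ± 3.89 in compressed WT cells and 44.6 ± 8.88 in control WT cells (SD, n = 3, 2, 3 and 3). The next gene was MNDA in both KO groups and in control WT cells, and IFIH1 in compressed WT cells. The range of IRF3 overlapped that of MNDA in compressed KO cells; in the other groups IRF3 lay above the next gene in every library. IFIH1 lay above DDX58 in each group, with ranges that overlapped in compressed KO cells. DDX58, DHX58, TLR3 and MAVS filled the middle of the order, at group means of 2.61 to 11.3 CPM per kilobase, and most neighbours among them overlapped. IFI16 and TMEM173 were the lowest in each group, below every library of the other members.

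**Figure D1:**
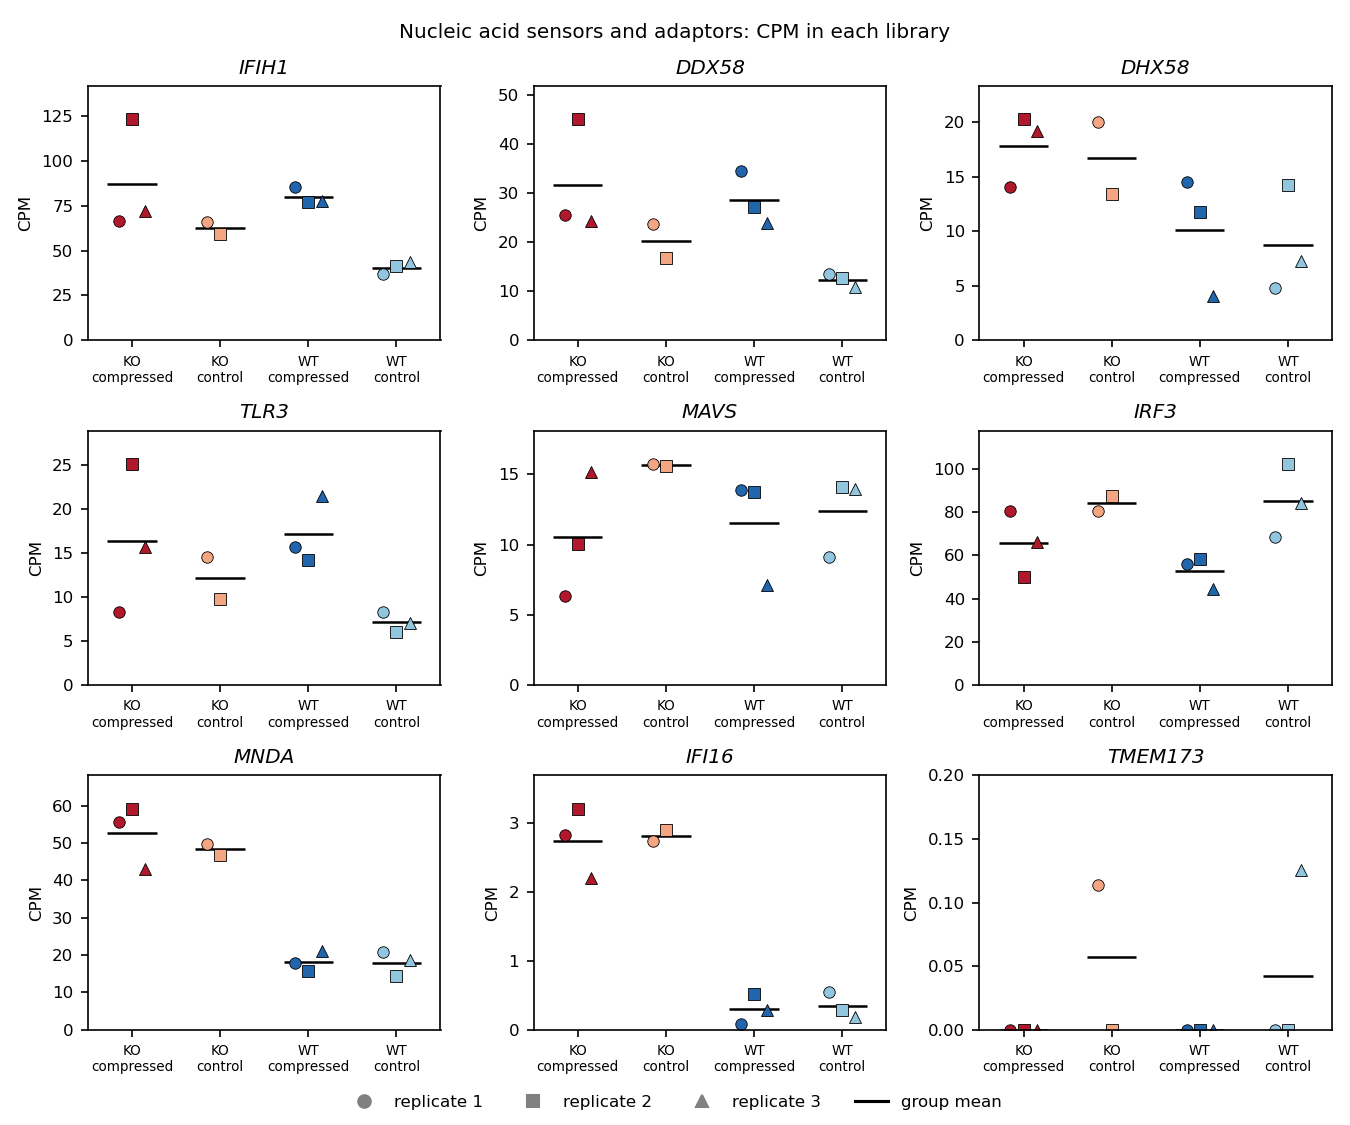
CPM of each of the 9 genes (vertical axis, own scale in each panel) in the libraries of compressed KO, control KO, compressed WT and control WT cells; point shapes give the replicate and bars the group mean. MNDA and IFI16 separate KO from WT libraries, and TMEM173 has counts in 2 libraries. IFIH1, DDX58 and TLR3 (higher) and IRF3 (lower) separate compressed WT from control WT libraries, as do 42% of all genes tested.

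The first comparison asked what compression did in WT cells. Of the 4 RNA receptors 3 rose: IFIH1, DDX58 and TLR3 were higher by 1.03 to 1.32 on the log2 scale, while DHX58 (the other receptor), MAVS, IFI16 and MNDA did not pass the test and IRF3 was lower without passing it. In this comparison 6.25% of the 13560 genes tested passed (3.85% higher and 2.4% lower), against 3 of the 8 members tested, all higher. The members were chosen with earlier results of these data known. Their shares, here and in the other comparisons, are therefore description and not independent support. The median log2 difference was 0.16 over the 8 members and -0.020 over all genes tested.

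IFIH1 (chr36:7668913-7726987, minus strand; all positions are on CanFam3.1) was at 85.7, 77.0 and 77.5 CPM in compressed WT cells, against 36.9, 41.2 and 43.3 CPM in control WT cells. Every compressed library was above every control library, and the spread within each group was small beside the gap. The log2 difference was 1.03 ± 0.21 (SE), with an adjusted p of 0.0410 by edgeR's quasi-likelihood test with Benjamini-Hochberg adjustment, as for all adjusted p-values here unless another tool is named.

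DDX58 (chr11:49764594-49799445, minus strand) was at 34.6, 27.3 and 23.9 CPM in compressed WT cells, against 13.5, 12.7 and 10.8 CPM in control WT cells. The groups did not overlap, and the lowest compressed library was well above the highest control library. Compression thus came with a log2 difference of 1.26 ± 0.27 (adjusted p = 0.0410).

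TLR3 (chr16:44618776-44625969, minus strand), the endosomal receptor, was at 15.6, 14.2 and 21.5 CPM in compressed WT cells, against 8.26, 6.04 and 6.98 CPM in control WT cells. The groups did not overlap, and replicate 3 of the compressed cells was the highest. At 1.32 ± 0.36, its log2 difference was the highest of the members (adjusted p = 0.0475).

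DHX58 (chr9:20787795-20795967, plus strand) encodes LGP2, a helicase of the same family that lacks their signalling domains and modulates them. It was at 14.6, 11.8 and 4.03 CPM in compressed WT cells, against 4.80, 14.2 and 7.23 CPM in control WT cells. Both groups held high and low libraries and overlapped over almost their whole range. Its log2 difference was 0.26 ± 0.43 (adjusted p = 0.698).

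Downstream of the receptors, neither MAVS nor IRF3 passed the test. MAVS (chr24:17512761-17529176, minus strand) was at 13.9, 13.7 and 7.10 CPM in compressed WT cells, against 9.12, 14.1 and 14.0 CPM in control WT cells. One library in each group was low and the others were alike. MAVS differed by -0.057 ± 0.32 on the log2 scale (adjusted p = 0.915).

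IRF3 (chr1:106874406-106879062, plus strand) was at 56.1, 58.4 and 44.5 CPM in compressed WT cells, against 68.7, 103 and 84.2 CPM in control WT cells. All compressed libraries were below all control libraries, and the controls were spread more widely. Its log2 difference of -0.64 ± 0.20 missed the threshold (adjusted p = 0.0601). Groups that did not overlap were common: 42% of all genes tested had none in WT cells, against 4 of the 8 members (IFIH1, DDX58, TLR3 and IRF3), which is near that background.

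The WT calls lay close to the threshold, since the smallest adjusted p of any gene in that comparison was 0.0410. Leaving out any 1 of compressed WT replicates 1, 2 and 3, control WT replicates 2 and 3 and control KO replicates 1 and 2 left none of the members called and 0 or 1 genes called in all, against 848 with all libraries. Without any 1 of the other 4 libraries, 913 to 3066 genes and 2 to 4 members were called. Neither limma fit called a member, and the fit with replicate number as a block called none either. IFIH1 and DDX58 were each called in 9 of the 19 alternatives and TLR3 in 7. The share of counts from mitochondrially encoded genes was 2.07 to 2.22% in compressed WT cells and 2.61 to 3.84% in control WT cells, and of the epithelial markers EPCAM was called higher and PAX8 lower; their part in the result was not tested. Over the 19 alternatives, the differences themselves ranged from 0.92 to 1.08 for IFIH1, from 1.07 to 1.35 for DDX58 and from 1.03 to 1.46 for TLR3, with adjusted p-values of 0.00101 to 0.184, 0.000959 to 0.184 and 0.00645 to 0.202.

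**Figure D2:**
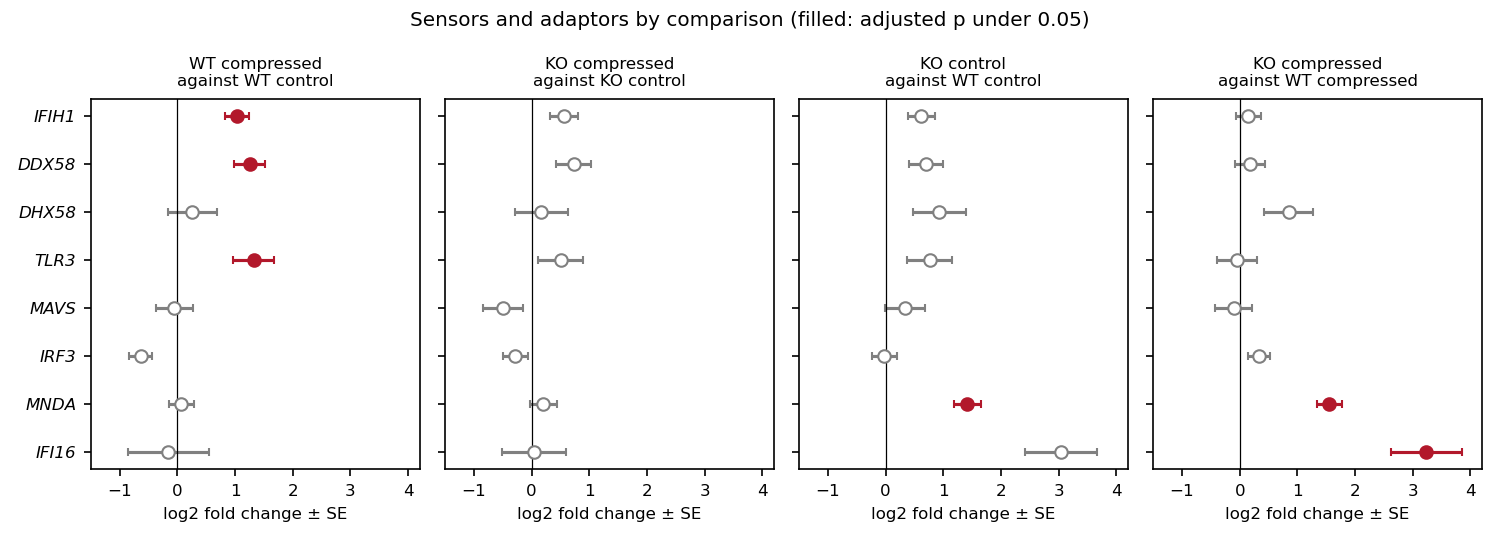
Log2 fold change ± SE (horizontal axis) of the 8 tested genes in 4 comparisons, from edgeR's quasi-likelihood fit of all 11 libraries; filled points have an adjusted p under 0.05. The filled points are IFIH1, DDX58 and TLR3 in WT compression, MNDA in both KO against WT comparisons and IFI16 between compressed cells.

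In KO cells, compression gave no call among the members or among all 13560 genes (0% called). Before adjustment, 828 genes had a p under 0.05 (6.11% of those tested), among them 2 of the 8 members, IFIH1 and DDX58. Calls by the other tools numbered 1 for DESeq2, 1 for limma with a pseudocount of 1 on FPKM and 0 with a pseudocount of 0.1, and none was a member. The groups did not overlap for the same 2 members, against 27.6% of all genes. The members' median log2 difference was 0.19, against -0.0036 for all genes.

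IFIH1 was at 66.6, 123 and 72.1 CPM in compressed KO cells, against 65.8 and 59.3 CPM in control KO cells. The compressed libraries were all above the controls, but replicate 1 only just, and replicate 2 stood far above the others. On the log2 scale the difference was 0.56 ± 0.24 (adjusted p = 0.773), and 0.22 without replicate 2 of the compressed KO cells.

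DDX58 was at 25.4, 45.1 and 24.4 CPM in compressed KO cells, against 23.7 and 16.7 CPM in control KO cells, again without overlap and again with replicate 2 far above. Its log2 difference was 0.73 ± 0.30 (adjusted p = 0.773), and 0.37 without that library. TLR3 was at 8.23, 25.1 and 15.6 CPM in compressed KO cells, against 14.6 and 9.72 CPM in control KO cells. The compressed libraries lay on both sides of the controls, and the log2 difference of 0.51 ± 0.39 (adjusted p = 0.793) was 0.049 without replicate 2.

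That library was the highest of all 11 for IFIH1, DDX58, DHX58, TLR3, MNDA and IFI16. Its total of 11867396 counts and its mitochondrial share of 2.90% lay within the range of the other libraries. MAVS was at 6.36, 10.0 and 15.1 CPM in compressed KO cells, against 15.7 and 15.6 CPM in control KO cells, and IRF3 was at 80.7, 49.8 and 66.3 CPM in compressed KO cells, against 80.8 and 87.8 CPM in control KO cells. By CPM all compressed libraries were below the controls, by very little for the highest of each gene, and after TMM scaling the groups overlapped for both genes. The log2 differences were -0.50 ± 0.35 for MAVS (adjusted p = 0.780) and -0.28 ± 0.22 for IRF3 (adjusted p = 0.793).

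Whether compression acted differently in the genotypes was tested by the interaction term, written as the KO difference minus the WT difference. No member and no gene passed (0% called); 650 genes had an unadjusted p under 0.05, 4.79% of those tested, and none of them was a member. The interaction was -0.81 ± 0.52 for TLR3, -0.53 ± 0.39 for DDX58 and -0.47 ± 0.32 for IFIH1 on the log2 scale (adjusted p = 0.939 for each). A p that misses the threshold does not show that the effects were alike in KO and WT cells. Without replicate 2 of the compressed KO cells the values were -1.27 for TLR3, -0.88 for DDX58 and -0.81 for IFIH1, and none passed.

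**Figure D3:**
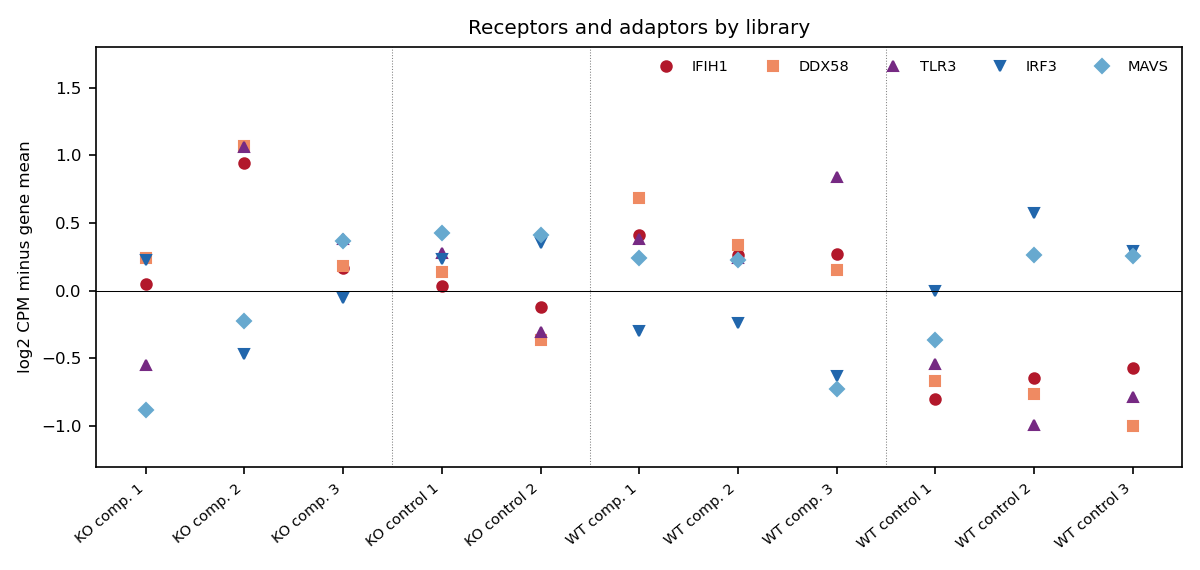
Log2 CPM minus the gene's mean over all libraries (vertical axis) for IFIH1, DDX58, TLR3, IRF3 and MAVS in each of the 11 libraries, with dotted lines between the groups. The 3 receptors lie together below their means in control WT cells and highest in replicate 2 of compressed KO cells.

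The 3 receptors that rose in WT cells lay close to each other over the 11 libraries, but did not keep the same order within groups. In control WT replicates 1 to 3, IFIH1 was at 36.9, 41.2 and 43.3 CPM and DDX58 at 13.5, 12.7 and 10.8 CPM. With each gene centred on its own mean, the root mean square log2 difference over the 11 libraries was 0.196 between IFIH1 and DDX58, 0.307 between IFIH1 and TLR3 and 0.350 between DDX58 and TLR3, and it was 0.448 between MAVS and IRF3. DHX58, although of the family of IFIH1 and DDX58, was 0.695 from IFIH1 and 0.712 from DDX58. Of 12506 genes with a symbol, those nearest to IFIH1 were ATP1B1, a subunit of the sodium pump (0.125), KBTBD3 (0.127) and SULT1C4, a sulfotransferase (0.128). Those nearest to DDX58 were GATAD1 (0.176), KIAA1143 (0.188) and ODF2L (0.209). These values describe likeness over libraries that share their group structure and depth. The 3 receptors were put together for their shared rise, so part of their likeness restates it.

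The genotype comparison in control cells asked which members differed in KO cells without compression. MNDA, a nuclear protein of the PYHIN family first described in human myeloid cells, was higher in KO cells, and the gene matched to IFI16, a DNA-binding protein of the same family, was higher by far but just missed the threshold. The receptors IFIH1, DDX58 and TLR3 were above WT in every library without passing the test. In this comparison 0.339% of genes passed (0.133% higher), against 1 of the 8 members. The members' median log2 difference was 0.73, against -0.013 over all genes, and control WT cells served as the control of this comparison as well as of WT compression, so that both share those libraries.

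MNDA (chr38:22921316-22929293, minus strand) was at 49.8 and 46.8 CPM in control KO cells, against 20.8, 14.4 and 18.6 CPM in control WT cells. Both KO libraries were above all WT libraries, with a wide gap between them. The log2 difference was 1.41 ± 0.23 (adjusted p = 0.0190), ranged from 1.27 to 1.55 over 19 alternatives and was called in 12 of them; of the 7 that did not call it, 6 were both limma fits and those without either control KO library or without control WT replicate 2 or 3. The 10 immune markers summed to 6.72 to 8.02 CPM in control KO cells and 5.72 to 8.42 CPM in control WT cells, which spans the KO values.

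IFI16 (chr38:22874618-22914523, minus strand; matched through the protein named in its description) was low in all libraries, with 48 and 52 counts in control KO cells, against 7, 4 and 3 counts in control WT cells. That is 2.73 and 2.89 CPM in control KO cells and 0.551, 0.278 and 0.189 CPM in control WT cells, with a wide gap between the genotypes. Its log2 difference of 3.04 ± 0.62 missed the threshold (adjusted p = 0.0669, and 0.00199 to 0.525 over 17 alternatives). IFI16 passed the filter on low counts through its KO libraries alone, so a difference toward KO was favoured in advance. The pooled counts, 100 in KO and 14 in WT controls, gave a ratio of 8.64 per total count, with an exact 95% interval of 4.91 to 16.4 that covers counting error only.

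Of the receptors in control cells, IFIH1 gave a log2 difference of 0.62 ± 0.23 between KO and WT (adjusted p = 0.540) and DDX58 one of 0.70 ± 0.29 (adjusted p = 0.584). TLR3 gave 0.76 ± 0.39 (adjusted p = 0.691) and MAVS 0.33 ± 0.35 (adjusted p = 0.896). Groups did not overlap for 6 of the 8 members, all higher in KO (MNDA, IFI16, IFIH1, DDX58, TLR3 and MAVS), against 16.9% of all genes. IFI16 passed the filter on low counts through its KO libraries alone, so its place among these was favoured in advance. IFIH1, DDX58 and TLR3 lay close to each other over the libraries, so the 6 are not separate observations. DHX58 was at 20.1 and 13.4 CPM in control KO cells, against 4.80, 14.2 and 7.23 CPM in control WT cells, and 1 WT library lay between the KO libraries. Its log2 difference was 0.93 ± 0.46 (adjusted p = 0.674), and that of IRF3 was -0.020 ± 0.22 (adjusted p = 0.994).

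Between compressed cells, MNDA and IFI16 were higher in KO cells and no other member passed. IFI16 had passed the filter on low counts through its KO libraries alone, so its call toward KO was favoured in advance. Here 0.789% of genes passed (0.509% higher), against 2 of the 8 members; the same 2 were the members higher without overlap, against 7.92% of all genes. MNDA was at 55.5, 59.2 and 43.2 CPM in compressed KO cells, against 17.9, 15.7 and 21.1 CPM in compressed WT cells. The groups lay as far apart as in control cells. On the log2 scale the difference was 1.55 ± 0.21 (adjusted p = 0.00310), from 1.44 to 1.70 over 19 alternatives and called in all 19 of them. The immune markers summed to 3.03 to 8.92 CPM in compressed KO cells and 1.92 to 5.52 CPM in compressed WT cells, ranges that overlap, and the mitochondrial share was 2.90 to 4.74% in compressed KO cells and 2.07 to 2.22% in compressed WT cells; their part in the result was not tested.

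IFI16 had 39, 38 and 36 counts in compressed KO cells, against 1, 6 and 3 counts in compressed WT cells, or 2.82, 3.20 and 2.20 CPM in compressed KO cells and 0.0767, 0.517 and 0.288 CPM in compressed WT cells. Every KO library was above every WT library. The log2 difference was 3.23 ± 0.62 (adjusted p = 0.0254); it was called in 9 of the 17 alternatives that could test it, with adjusted p-values of 0.000276 to 0.132. Of the 8 that did not call it, 7 leave out 1 of the compressed WT libraries, compressed KO replicates 1 and 3 or the control KO libraries. The pooled counts of 113 and 10 gave a ratio of 9.41 (exact 95% interval 4.93 to 20.2). The other members differed by -0.11 to 0.85 on the log2 scale. DHX58 was the highest of these, at 14.1, 20.3 and 19.2 CPM in compressed KO cells against 14.6, 11.8 and 4.03 CPM in compressed WT cells, and it overlapped (0.85 ± 0.42, adjusted p = 0.485). IFIH1, DDX58 and TLR3 were 0.15 ± 0.21, 0.17 ± 0.26 and -0.051 ± 0.35, with adjusted p-values of 0.853, 0.866 and 0.971.

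**Figure D4:**
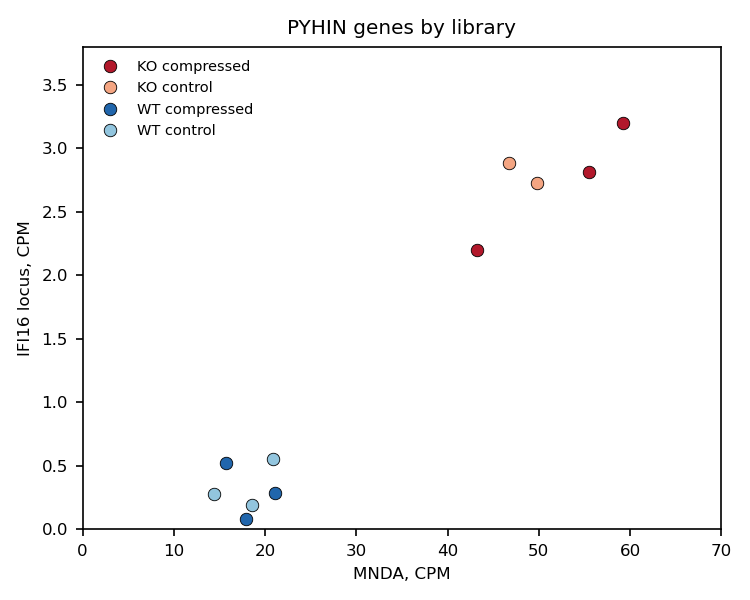
CPM of the IFI16 locus (vertical axis) against CPM of MNDA (horizontal axis), 1 point per library, coloured by group. The 5 KO libraries lie at 43.2 CPM or more of MNDA and 2.20 CPM or more of IFI16, apart from the 6 WT libraries.

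Compression did not move either PYHIN gene past the test. The log2 difference after compression was 0.21 ± 0.23 for MNDA and 0.042 ± 0.55 for IFI16 in KO cells (adjusted p = 0.836 and 0.991), and 0.069 ± 0.21 for MNDA and -0.16 ± 0.71 for IFI16 in WT cells (adjusted p = 0.840 and 0.893). The 2 genes are neighbours, with 6792 bases between them, and reads that match both could have been assigned to either, so their separate values carry that uncertainty. Of the 37 other genes within 500 kb of the pair, CD1A had 1 count in control WT replicate 3 and the rest had none in any library. The nearest tested genes with a symbol, DUSP23 at 529.7 kb and KIRREL at 598.4 kb, did not pass in either genotype comparison. Over the 109 other tested genes of chromosome 38, 0 passed in either one. Of all genes tested 0.339% passed between control cells and 0.789% between compressed cells. The 0 among 109 is near those shares, so nothing about the chromosome is read from it. Median log2 differences of the 109 genes were -0.029 between control cells and 0.012 between compressed cells, against -0.013 and -0.0075 over all genes. Among 12506 genes, RNF128, a ubiquitin ligase, lay nearest to IFI16 across libraries, at a root mean square log2 difference of 0.542, followed by UPK3B at 0.632 and PDZK1 at 0.651.

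TMEM173 (chr2:34782973-34792241, minus strand), which encodes STING, was close to absent from these libraries. It had 2 counts in control KO replicate 1, 2 counts in control WT replicate 3 and none in the other 9 libraries, and it was not tested. The 4 counts among 155748390 give 0.0257 CPM, with an exact 95% interval of 0.00700 to 0.0658 CPM. In the libraries at 0, the upper end of the exact 95% interval ran from 0.205 CPM (control KO replicate 2) to 0.354 CPM (compressed WT replicate 3), depending on the total. CGAS, which makes the messenger that STING binds, had 1 count in all, in compressed WT replicate 3. RNASEH2C, a subunit of an enzyme that most cells use, was also listed at 0 in all libraries, so a listing at 0 need not mean that the RNA was absent.

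**Figure D5:**
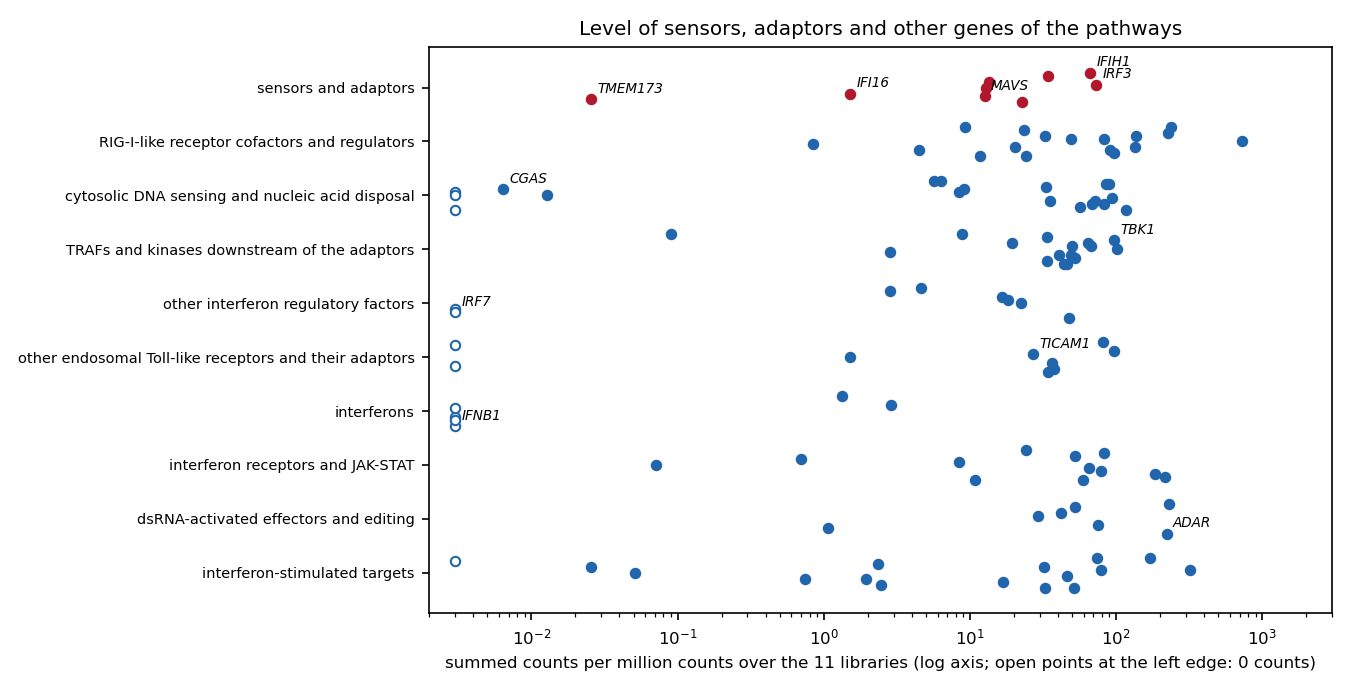
Summed counts over summed totals, as CPM, over the 11 libraries (horizontal log axis) of the sensors and adaptors and of 9 lists of other pathway genes, 1 row per list and 1 point per gene; open points at the left edge had 0 counts. TMEM173 and CGAS lie at the low end, IRF7 and IFNB1 at 0, and TBK1 and ADAR toward the high end.

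The rest of the pathway was read from 9 lists with 117 genes outside the members, of which 110 were found and 92 tested. After compression of WT cells 11 of the 92 were higher and 2 lower, 14.1% against the 6.25% of all genes. The lists were chosen with earlier results of these data known, so the larger share is not independent support for a pathway result. In the other 3 comparisons and the interaction none passed. Like the members' calls, these depend on 7 of the 11 libraries, since leaving out any 1 of those named above left 0 or 1 genes called in the whole table, whereas leaving out any 1 of the other 4 left 913 or more. At an unadjusted p under 0.05 the lists held 11 of the 92 genes in KO compression, against 6.11% of all genes. They held 4 in the interaction, against 4.79%. They held 38 in WT compression, 12 in control KO against control WT cells and 5 in compressed KO against compressed WT cells. For these the share of all genes is not given here, so nothing is read from them. Single lists are small, so 1 or 2 genes passing the adjusted test in a list are given as values, not as a result about that list.

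Of the 17 cofactors and regulators of RIG-I-like receptors, 2 rose in WT compression and none fell. DDX60, a helicase reported in human cells to assist RIG-I, was at 10.1, 10.7 and 6.14 CPM in compressed WT cells, against 0.472, 3.33 and 1.13 CPM in control WT cells. The groups did not overlap, although counts were low (2.48 ± 0.60, adjusted p = 0.0428). DDX60 was at 15.1 and 9.67 CPM in control KO cells, all above control WT cells, and the log2 difference of 2.89 ± 0.64 did not pass (adjusted p = 0.101). ATG5, an autophagy protein that in mouse cells restrains RIG-I signalling, was higher by 0.55 ± 0.15 (adjusted p = 0.0471). TRIM25, the ubiquitin ligase known for RIG-I activation, gave 0.23 ± 0.18 (adjusted p = 0.370).

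Of the 14 tested genes for DNA sensing and nucleic acid disposal, 2 rose in WT compression and none fell. RNASEH2B, a subunit of the nuclease that removes RNA from RNA-DNA hybrids, was at 114, 103 and 129 CPM in compressed WT cells, against 72.5, 59.1 and 67.6 CPM in control WT cells, without overlap (0.84 ± 0.17, adjusted p = 0.0410). MRE11, a nuclease of DNA repair, was higher by 0.74 ± 0.19 (adjusted p = 0.0448).

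Of the 15 tested TRAF proteins and kinases downstream, none rose and 1 fell, which is near the 6.25% of all genes called. FADD, a death-domain adaptor, was at 5.45, 7.42 and 4.89 CPM in compressed WT cells, against 8.34, 14.8 and 16.8 CPM in control WT cells, without overlap (-1.12 ± 0.28, adjusted p = 0.0435). The IRF3 kinases gave 0.34 ± 0.24 for TBK1 (adjusted p = 0.335) and -0.59 ± 0.20 for IKBKE (adjusted p = 0.0762).

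Of the 7 tested genes of the other endosomal Toll-like receptors and their adaptors, 1 rose and 1 fell. IRAK4, a kinase downstream of MYD88, was at 49.0, 40.5 and 49.7 CPM in compressed WT cells, against 23.4, 20.8 and 21.8 CPM in control WT cells, with a wide gap (1.13 ± 0.19, adjusted p = 0.0410). IRAK1, the kinase it phosphorylates, moved the other way by -0.94 ± 0.25 (adjusted p = 0.0470). TICAM1, the adaptor of TLR3, was at 20.2, 23.5 and 11.1 CPM in compressed WT cells, against 25.0, 53.6 and 41.5 CPM in control WT cells. All compressed libraries were below the controls, while its receptor was above them; the log2 difference of -1.09 ± 0.33 missed the threshold (adjusted p = 0.0579). In KO cells TICAM1 was at 16.1, 9.94 and 22.6 CPM when compressed, against 30.4 and 32.0 CPM in controls (-0.86 ± 0.36, adjusted p = 0.773).

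None of the 6 tested interferon regulatory factors other than IRF3 passed, and IRF7, the factor that amplifies the interferon response, was at 0 in every library. Interferons were at or near 0: IFNB1, IFNL1, IFNL3 and IFNG had no count, and IFNE and IFNK, both low but tested, differed by 0.024 ± 0.40 and 0.60 ± 0.62 in WT compression (adjusted p = 0.973 and 0.523). None of the 11 tested genes of interferon receptors and JAK-STAT signalling passed. Of the 7 double-stranded RNA effectors 1 rose: OAS2, which makes the activator of RNase L, at 278, 258 and 202 CPM in compressed WT cells against 117, 166 and 144 CPM in control WT cells (0.83 ± 0.21, adjusted p = 0.0435).

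Of the 13 tested interferon-stimulated targets, 5 rose and none fell in WT compression, with a median log2 difference of 1.34. Over all genes tested 3.85% were called higher, and the median was -0.020. This list too was chosen with earlier results known, and like the members' calls these depend on the libraries named above. RSAD2, which encodes viperin, was at 202, 130 and 72.6 CPM in compressed WT cells, against 2.20, 35.0 and 9.94 CPM in control WT cells. All compressed libraries were above the controls, with a wide spread in both groups (3.15 ± 0.72, adjusted p = 0.0414). IFI44L was higher by 2.12 ± 0.45 and IFI44 by 1.42 ± 0.38 on the log2 scale (adjusted p = 0.0410 and 0.0471). SAMD9L, an antiviral factor, was higher by 1.11 ± 0.22 (adjusted p = 0.0410) and HERC6, which in mice attaches ISG15 to proteins, by 0.81 ± 0.19 (adjusted p = 0.0414). In KO cells RSAD2 was at 57.3, 205 and 85.2 CPM when compressed, against 43.1 and 26.5 CPM in controls; replicate 2 was the highest here too (1.82 ± 0.79, adjusted p = 0.773). The median of the 13 genes was 0.64 in KO compression and 0.78 between control KO and control WT cells, and none of them passed in either.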

How the data were processed

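RNA of 11 MDCKII libraries was read as polyadenylated RNA primed with random hexamers, per the labels' protocols (strandedness was not given in the sources used here). Tools named were CASAVA, FastQC and HISAT2 2.0.5, with the build CanFam3.1, per the submitters' processing notes; the sources used here name no gene counter or annotation release. Whole-number counts of 26178 genes were deposited by the authors, with an FPKM table of the same libraries; the deposited FPKM served as an alternative only. Of the 9 members, TLR3 and IFI16 were matched through the protein named in the deposited description. No gene overlapped a member. Replicates differed by more than sampling noise (chi-square per gene 5.86 to 72.1). Control WT replicate 1 gave 72.1 and 45.1 against replicates 2 and 3. Compressed KO replicate 2 gave 64.9 and 54.2 against replicates 1 and 3.

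Counts were tested with edgeR 4.0.16 in R 4.3.3: filterByExpr over the 4 groups kept 13560 genes, libraries were scaled by TMM, and 1 quasi-likelihood fit of all 11 libraries left 7 residual degrees of freedom. P-values were two-sided and adjusted by Benjamini-Hochberg over all genes tested, at a threshold of 0.05. CPM per library use the count totals without TMM. The code was tested on simulated counts.

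The members and lists were chosen with earlier results of these data known. All members are named; of the other pathway genes, called ones (up to 6 per list and comparison) are named. Where a list had none called, the rule takes up to 3 with the smallest p, of which not all are given. TRIM25, TBK1, IKBKE, TICAM1, CGAS and the genes at 0 were named for their role, outside this rule, with their values known. Genes nearest to IFIH1, DDX58 and IFI16, the member with the widest range, are the 3 with the smallest root mean square difference.

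The alternatives were RLE scaling, library size alone, DESeq2 1.42.0, no filter, at least 1 CPM in 3 libraries, limma 3.58.1 on log2(FPKM + 1) and log2(FPKM + 0.1) for genes reaching an FPKM of 1 in 2 libraries, a replicate block, and leaving out each library. AIM2, TREX1, TICAM2, IFNL2, IFNA4, IFNA7 and IFNLR1 were looked for but not found by name, and so were not analysed.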

Additional observations from a re-analysis of the deposited data

How the results depend on the processing

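Of the 40 log2 differences (8 members, 4 comparisons and the interaction), 13 changed sign somewhere, in 31 settings of which 29 leave out 1 library; none of the 13 was called (smallest adjusted p 0.698). With 1 library left out, DHX58 ranged from -0.10 to 0.78 in WT compression, -0.085 to 0.48 in KO compression and -0.61 to 0.28 in the interaction. MAVS ranged from -0.22 to 0.18 in WT compression and -0.46 to 0.15 between compressed cells. IFI16 ranged from -0.84 to 0.36 in WT compression, -0.092 to 0.19 in KO compression and -0.32 to 0.88 in the interaction. MNDA ranged from -0.080 to 0.21 in WT compression and IRF3 from -0.14 to 0.12 between control cells. Between compressed cells IFIH1 ranged from -0.19 to 0.31, DDX58 from -0.18 to 0.34 and TLR3 from -0.51 to 0.27. With library size alone IFI16 was -0.040 in KO compression.

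In WT compression, genes called numbered 848, against 2479 with DESeq2, 1754 with no filter, 0 with limma on log2(FPKM + 1), 1 on log2(FPKM + 0.1) and 0 to 3066 with 1 library left out; members called numbered 3, against 0 by both limma fits and 0 to 4 with 1 library left out. In KO compression, DESeq2 and limma on log2(FPKM + 1) called 1 gene each. Between control cells, genes called numbered 46, against 125 with DESeq2, 90 with no filter, 16 and 8 with limma on log2(FPKM + 1) and log2(FPKM + 0.1), and 6 to 106 with 1 library left out; members numbered 1, against 2 with DESeq2 and with no filter, 0 by both limma fits and 0 to 2 with 1 library left out. Between compressed cells, genes called numbered 107, against 353 with DESeq2, 201 with no filter, 59 and 50 with limma on log2(FPKM + 1) and log2(FPKM + 0.1), and 39 to 349 with 1 library left out; members numbered 2, against 1 by both limma fits and 1 to 2 with 1 library left out. The limma fits filtered IFI16 out. The interaction gave 0 to 1 genes with 1 library left out. The cause of these shifts was not tested.

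Whether replicate numbers pair the libraries could not be decided. Deviations of same-numbered libraries from their group means correlated at -0.349 to 0.201 over 15 pairs, and those of different numbers at -0.251 to 0.373 over 30. In groups of 2 or 3 libraries such deviations depend on each other, so these values cannot show whether same-numbered libraries were handled together. With the replicate block, genes called were 0 in WT compression, 15 between control cells and 53 between compressed cells, members called were 0, 0 and 1 (IFI16 lost its call between compressed cells, MNDA between control cells), and the interaction of DHX58 was 0.12.

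The order of levels within a group was the same with the deposited FPKM. The search for a promoter motif was not run. Depth limits IFI16 in WT cells and TMEM173, which had few counts or none.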
